A study of Homo sapiens with 18 samples.

Results

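The comparison set L428-derived cells given both PAX5 and chromatin drugs against L428 cells given neither. L428-PAX5+MAT is the cell line L428-PAX5, a derivative of the Hodgkin lymphoma line L428 that makes the B-cell factor PAX5, after mifepristone, 5-aza-2′-deoxycytidine (5-aza-dC) and trichostatin A (TSA), and L428+M is the parental line L428 after mifepristone only. Both groups had 3 arrays, so 6 of the 18 arrays of the study were compared, across all 18417 genes with a probe set assigned to a single symbol. The study asked how far PAX5, alone or with opened chromatin, brings back the mature B-cell phenotype in Hodgkin cells.

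L428-PAX5+MAT cells received 0.25 nM mifepristone for 2 days, then 3 µM 5-aza-dC for 3 days, with 640 nM TSA in the last 24 hours, in medium that also held 25 mM HEPES buffer. L428+M cells received 0.25 nM mifepristone for the same total of 5 days, without 5-aza-dC, TSA or HEPES. Mifepristone, which switches on PAX5 in L428-PAX5, was therefore shared by both groups. The intermediate groups were L428-PAX5+M (the PAX5 line without 5-aza-dC and TSA) and L428+MAT (the parental line with them), with 3 arrays each, and the untreated Burkitt lymphoma lines Raji and Namalwa, with 3 arrays each, gave the level of PAX5-positive B-cell lines. The titles of the L428-PAX5+MAT arrays write L425-PAX5, but their cell line field gives L428-PAX5, which is the name used here. Whether L428-PAX5 is 1 clone, and whether replicates came from separate cultures, is not in the labels, so the tests measure the spread between arrays, which may be technical. PAX5, the origin of the line, its buffer and the drugs differ together between L428-PAX5+MAT and L428+M, so their parts in any difference cannot be told apart, and L428-PAX5 without mifepristone was not analysed here.

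Hodgkin and Reed-Sternberg cells descend from germinal-centre B cells but have shut down most B-cell genes, among them the B-cell receptor components, and they survive on NF-kB and JAK-STAT signalling. PAX5 is the factor that commits lymphoid progenitors to the B lineage, switching on genes such as CD79A and BLNK and holding down genes of other lineages. 5-aza-dC traps DNA methyltransferases and causes loss of DNA methylation at replication, and TSA blocks histone deacetylases. Genes kept silent by promoter methylation, such as germ-line and cancer-testis genes, are known to respond to such drugs, and so is the interferon response, which can sense RNA from reactivated endogenous repeats.

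Promoter sequences of 7 genes that carry the contrasts described below were taken from RefSeq (GRCh38.p14), each as the 250 bases before the annotated start, 5′ to 3′ on the strand of the gene. The first 3 belong to the interferon response list and are shown because 2 of these genes fell and 1 rose. Their capitals mark GAAA, any 2 bases and GAAA again, on either strand, the letters of the interferon-stimulated response element. IFI44L lies on the plus strand (chr1:78620198-78620447), IFITM1 on the plus strand (chr11:313790-314039) and LGALS3BP on the minus strand (chr17:78979924-78980173).
IFI44L: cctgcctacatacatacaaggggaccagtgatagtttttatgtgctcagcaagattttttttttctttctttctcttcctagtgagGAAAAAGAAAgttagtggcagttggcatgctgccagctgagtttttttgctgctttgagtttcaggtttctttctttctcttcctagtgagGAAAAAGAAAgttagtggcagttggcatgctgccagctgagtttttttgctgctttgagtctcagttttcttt
IFITM1: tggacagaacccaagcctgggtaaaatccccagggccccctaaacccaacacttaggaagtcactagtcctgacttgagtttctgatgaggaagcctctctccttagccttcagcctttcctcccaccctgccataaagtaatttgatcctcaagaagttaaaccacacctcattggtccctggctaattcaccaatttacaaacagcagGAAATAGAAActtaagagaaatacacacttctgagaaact
LGALS3BP: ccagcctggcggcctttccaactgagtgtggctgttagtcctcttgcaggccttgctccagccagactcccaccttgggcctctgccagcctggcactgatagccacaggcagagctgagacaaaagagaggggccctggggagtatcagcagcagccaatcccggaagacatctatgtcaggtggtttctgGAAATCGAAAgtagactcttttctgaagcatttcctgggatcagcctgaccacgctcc

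The other 4 sequences belong to genes that rose, and are shown because their CG dinucleotides, the places where DNA methylation can sit and which are in capitals here, range from 28 to 1. DAZL lies on the minus strand (chr3:16605424-16605673), UTS2B on the minus strand (chr3:191330527-191330776), SSX1 on the plus strand (chrX:48255142-48255391) and RFPL4A on the plus strand (chr19:55758847-55759096). The windows hold 28 CG in DAZL, 7 in UTS2B, 3 in SSX1 and 1 in RFPL4A. Methylation itself was not measured on these arrays, and a match of letters is a description, not a bound site or a cause.
DAZL: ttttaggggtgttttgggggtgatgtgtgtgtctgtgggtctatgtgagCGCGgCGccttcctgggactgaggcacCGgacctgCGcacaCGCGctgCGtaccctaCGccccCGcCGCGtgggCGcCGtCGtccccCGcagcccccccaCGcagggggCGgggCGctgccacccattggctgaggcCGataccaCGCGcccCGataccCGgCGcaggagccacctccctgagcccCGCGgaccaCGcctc
UTS2B: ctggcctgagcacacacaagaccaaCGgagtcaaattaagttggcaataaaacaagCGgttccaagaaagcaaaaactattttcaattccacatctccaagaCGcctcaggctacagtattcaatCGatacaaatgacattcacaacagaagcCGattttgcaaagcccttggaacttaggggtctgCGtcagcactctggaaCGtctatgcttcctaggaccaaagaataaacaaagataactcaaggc
SSX1: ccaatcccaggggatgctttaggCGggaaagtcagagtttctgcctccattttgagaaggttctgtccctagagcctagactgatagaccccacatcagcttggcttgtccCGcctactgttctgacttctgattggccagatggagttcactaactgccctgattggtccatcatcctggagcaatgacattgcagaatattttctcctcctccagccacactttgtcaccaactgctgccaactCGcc
RFPL4A: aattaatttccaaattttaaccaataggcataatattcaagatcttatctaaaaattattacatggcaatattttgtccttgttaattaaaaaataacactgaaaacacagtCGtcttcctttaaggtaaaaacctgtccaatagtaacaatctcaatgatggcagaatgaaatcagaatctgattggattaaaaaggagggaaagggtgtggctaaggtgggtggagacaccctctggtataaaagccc

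All values are log2 expression levels, on which 1 unit is a 2-fold difference, and a change is the difference of 2 group means with its standard error from limma, a linear model for arrays that shares information on the spread across genes. A gene was said to have risen or fallen when its p, adjusted over all 18417 genes, was below 0.05. In L428-PAX5+MAT, 3290 genes (17.9%) were higher and 3609 (19.6%) were lower than in L428+M, 37.5% together, and 1238 of those higher (6.72% of all genes) and 1391 of those lower (7.55%) were so at least 2-fold. The median change over all genes was -0.06, and the calls leaned by signal level. With the genes in 4 equal bins by mean level, 614 rose and 207 fell in the dimmest bin, whereas 739 rose and 1728 fell in the brightest, with a median change of -0.24 there. The files hold no detection calls, so changes of dim genes are understated by an unknown amount. In bulk RNA, fewer cells of a type and less RNA per cell cannot be told apart.

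The L428-PAX5+MAT arrays varied among themselves. The deviations from the group mean over genes had an SD of 0.18 for replicate 1, 0.28 for replicate 2 and 0.30 for replicate 3. Replicate 2 lay furthest from L428+M. Its correlation across genes with the 3 L428+M arrays was 0.8952 to 0.9064, against 0.9257 to 0.9400 for the other L428-PAX5+MAT arrays, and the L428+M arrays correlated with one another at 0.9813 to 0.9915. Without replicate 2, 2900 genes rose and 3209 fell, and 1157 and 1177 did so at least 2-fold. Without replicate 3, 3343 rose and 3479 fell, and 1417 and 1575 did so at least 2-fold. Of 10 markers of Hodgkin cells, 10 lay above the median of all values in L428-PAX5+MAT and 9 in L428+M, whereas of 7 measured markers of mature B cells only 1 did in L428-PAX5+MAT and 2 in L428+M. Of the 10 Hodgkin markers, 5 fell and 1 rose. That count does not tell Hodgkin cells from other lines. In Raji, TNFRSF8 (7.69), CCL17 (7.69) and CCL22 (7.87) also lay above that median, while MSC (5.50) and CD274 (5.88) did not. The label of a Hodgkin cell line was kept for both groups from the name of the line.

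PAX5 itself stood at 12.84, 12.85 and 12.67 in L428-PAX5+MAT, against 8.64, 7.14 and 6.70 in L428+M. The groups were far apart, and L428+M replicate 1 was the highest of its group. The change of 5.29 ± 0.30 was a 39.2-fold rise (adjusted p = 3.39e-10). L428-PAX5+M was 5.23 above L428+M, and L428-PAX5+MAT differed from it by 0.06 ± 0.30 (adjusted p = 0.915). PAX5 averaged 10.89 in Raji and 11.08 in Namalwa, and every array of both lines was below every L428-PAX5+MAT array.

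The largest rises were genes with little known role in B cells. UTS2B, which encodes a vasoactive peptide, read 10.05, 10.99 and 10.20 in L428-PAX5+MAT and 3.85, 3.90 and 4.37 in L428+M, an 82.8-fold rise (6.37 ± 0.25, adjusted p = 4.31e-12). RFPL4A, a gene of the oocyte and early embryo that has near-identical copies, read 11.64, 12.17 and 10.63 in L428-PAX5+MAT and 5.87, 5.56 and 5.64 in L428+M. GPR50, a receptor related to the melatonin receptors, read 10.59, 11.65 and 10.28 in L428-PAX5+MAT and 5.47, 5.54 and 5.72 in L428+M. The naming rule asked that the groups not overlap, and in these 3 genes L428-PAX5+MAT replicate 2 was the highest array each time. RFPL4A rose 55.3-fold and GPR50 38.4-fold.

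TENM1, a teneurin of neuronal wiring, rose 29-fold with tight replicates, at 10.07, 10.18 and 9.95 in L428-PAX5+MAT and 5.21, 5.24 and 5.17 in L428+M. The other 7 of the 12 largest rises, PAX5 included among the 12, were KRTAP19-8, a hair keratin-associated protein (4.71), C1QTNF9B, a secreted relative of complement C1q (4.60), ANKRD30B (4.51), DNAH12, an axonemal dynein heavy chain (4.43), TCN2, the vitamin B12 carrier transcobalamin (4.40), ZNF737, a zinc finger gene (4.39), and FMN1, a formin of the actin skeleton (4.38). Of these 11 genes other than PAX5, C1QTNF9B (3.67) and ANKRD30B (1.94) also rose in L428-PAX5+M, where 9.72% of all genes did, while the other 9 differed by -0.22 to 0.51 there and did not pass. In L428+MAT, where 4.21% of all genes rose, 10 of the 11 did so, by 1.22 to 3.54, and C1QTNF9B did not pass (0.51, adjusted p = 0.529). Those 10 were also higher in L428-PAX5+MAT than in L428+MAT, where 14.3% of all genes were, by 1.32 for TENM1 at the least and by 4.28 for UTS2B at the most. The choice of genes by their high L428-PAX5+MAT values favours this, so 14.3% is not a like background.

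The largest falls followed another pattern. EVI2B, a membrane protein of blood cells that PAX5 is reported to repress, read 5.04, 4.89 and 4.70 in L428-PAX5+MAT and 10.67, 10.86 and 10.77 in L428+M, a 59.4-fold fall (-5.89 ± 0.18, adjusted p = 2.71e-13). CYP4Z1, a fatty acid hydroxylase, read 7.73, 7.61 and 6.59 in L428-PAX5+MAT and 13.09, 12.79 and 12.88 in L428+M, 48.9-fold lower. CYP19A1, the aromatase that makes oestrogens, read 5.61, 5.51 and 6.40 in L428-PAX5+MAT and 11.31, 10.63 and 11.26 in L428+M, 37.4-fold lower. All 3 genes lay below the median of all values, 6.62, on at least 1 L428-PAX5+MAT array and far above it on every L428+M array.

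Annexin A1 (ANXA1), a phospholipid-binding regulator of inflammation, read 6.99, 6.87 and 7.38 in L428-PAX5+MAT and 11.92, 11.97 and 12 in L428+M. The remaining 8 of the 12 largest falls were TSPAN8, a tetraspanin (-5.46), CYP4Z2P, a pseudogene so close to CYP4Z1 that their probes may share transcripts (-5.20), ENTREP1 (-4.75), NDST4, a heparan sulfate enzyme (-4.53), GBE1, the glycogen branching enzyme (-4.41), MINAR2 (-4.31), ENPP3, an ectonucleotidase (-4.10), and PTPRR, a receptor tyrosine phosphatase (-3.94). All 12 fell in L428-PAX5+M too, where 6.55% of all genes did, by 1.57 for NDST4 at the least and by 5.73 for EVI2B at the most. In L428+MAT, where 0.635% of all genes fell, 3 of the 12 did so, GBE1 (-1.03), MINAR2 (-1.78) and PTPRR (-1.37). The combined and both single comparisons share the L428+M arrays, on which these genes were partly chosen, so the shares over all genes are not a like background.

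**Figure D1:**
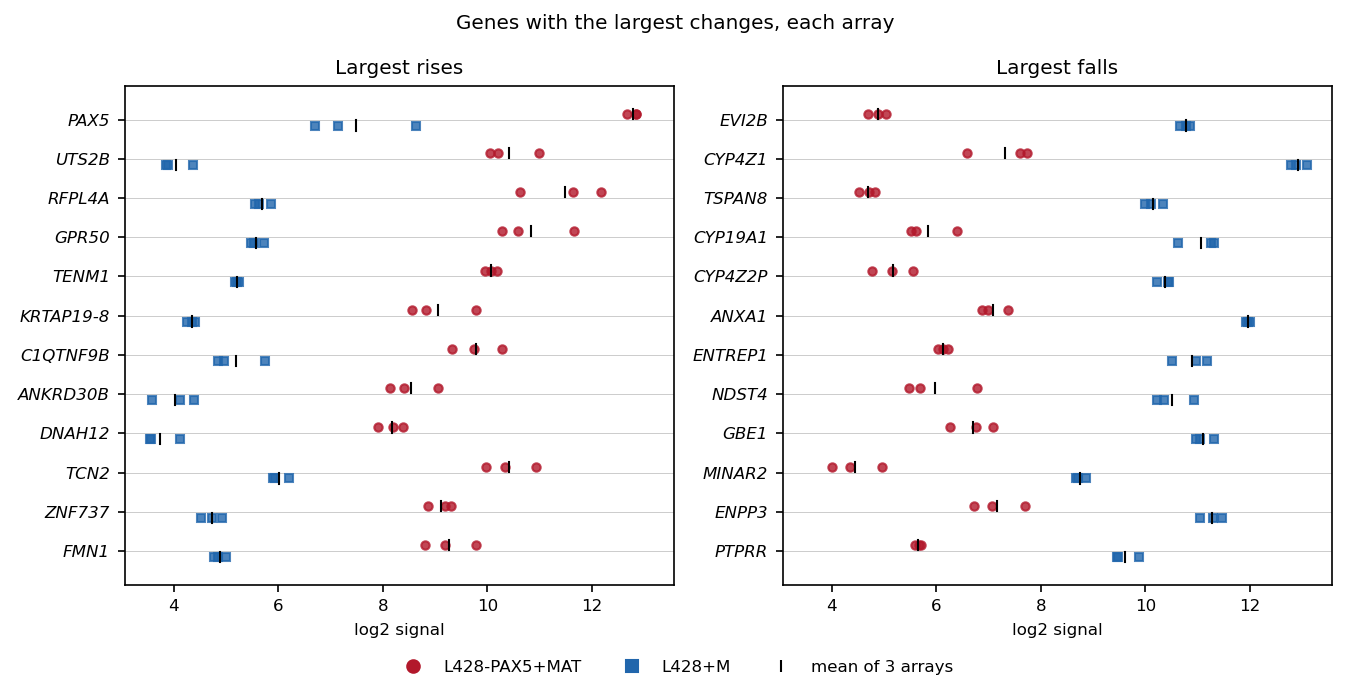
Log2 expression of the 12 genes with the largest rise and the 12 with the largest fall, with 1 dot per array and a black tick at each group mean, L428-PAX5+MAT against L428+M. Only genes without overlap between the groups were eligible. UTS2B, the largest rise, lies at 10.05 to 10.99 in L428-PAX5+MAT and at 3.85 to 4.37 in L428+M.

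Gene lists of pathways and cell types were read against those backgrounds of 17.9% higher and 19.6% lower. These backgrounds are not matched for signal level, and in the brightest bin 37.5% of all genes fell and 16.1% rose. Falls in the bright lists of NF-kB (35.7%), JAK and STAT (36.4%) and ATF4 genes (35.5%) lay near that share. At least 50% of the members fell in 6 lists, HLA class II (71.4%), class I antigen processing (58.3%), Hodgkin cell genes (55.6%), B-cell transcription factors (52.4%), the interferon response (51.3%) and genes reported as repressed by PAX5 (50%), and at least 50% rose in the inhibitors of B-cell factors (56.2%) and the germ-cell genes (50%).

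**Figure D2:**
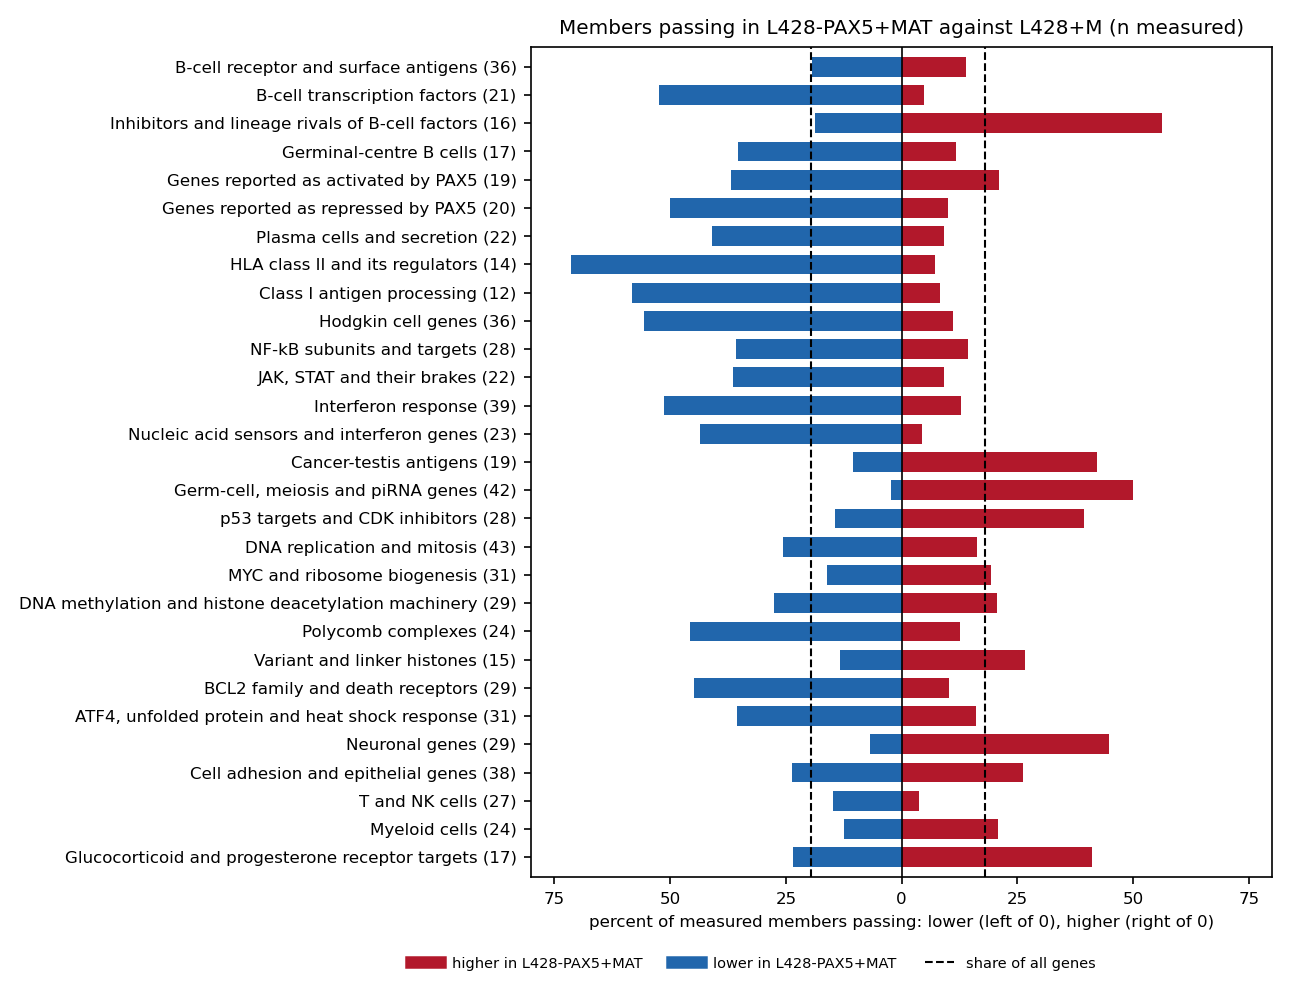
Percent of the measured members of each gene list that were lower (left) and higher (right) in L428-PAX5+MAT than in L428+M, with dashed lines at the share over all genes, 19.6% lower and 17.9% higher. Interferon response has 20 lower of 39 members, and germ-cell, meiosis and piRNA genes have 21 higher of 42.

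Both signalling chains of the B-cell receptor were far below the Burkitt lines with PAX5 and the drugs. CD79A read 6.30, 6.53 and 6.39 in L428-PAX5+MAT and 6.37, 6.24 and 5.78 in L428+M. CD79B read 6.62, 6.58 and 6.48 in L428-PAX5+MAT and 6.49, 6.69 and 7.04 in L428+M. The groups overlapped for both genes, with differences of 0.27 ± 0.16 and -0.18 ± 0.15 (adjusted p = 0.209 and 0.401), whereas CD79A averaged 12.30 in Raji and 11.93 in Namalwa. BLNK, the adaptor downstream of the receptor, differed by 0.11 ± 0.18 (adjusted p = 0.676), and MS4A1, which encodes CD20, by 0.09 ± 0.25 (adjusted p = 0.81), both with overlapping groups, and BLNK by -0.02 without L428+M replicate 1. EBF1 has no single-symbol probe set and was not measured here.

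Of 36 measured genes of the receptor and B-cell surface, 5 rose and 7 fell, with a median change of -0.08. Their shares, 13.9% and 19.4%, lay near those of all genes, 17.9% and 19.6%. CR2, the complement receptor CD21 and a known PAX5 target, read 6.81, 6.58 and 6.79 in L428-PAX5+MAT and 5.25, 4.79 and 4.30 in L428+M, a 3.86-fold rise (1.95 ± 0.22, adjusted p = 1.51e-06). Its mean of 6.73 in L428-PAX5+MAT compares with 6.39 in Namalwa and 11.08 in Raji. CD22, an inhibitory co-receptor, rose by 0.53 ± 0.16 (adjusted p = 0.013), CD24 by 0.82, and PLCG2 and BTK, enzymes of receptor signalling, by 0.54 and 0.46. The rises of CD24 and CD22 were each lost without L428-PAX5+MAT replicate 1 or 2 or L428+M replicate 3, and that of CD24 also without L428+M replicate 1. The count of rises was 3 without L428-PAX5+MAT replicate 1 and 2 without L428+M replicate 3. Among the 7 falls were PTPRC, the CD45 phosphatase (-3.11 ± 0.15, 8.61-fold lower), CD37, a tetraspanin (-1.82), and the receptor kinases LYN (-1.36), BLK (-1.15) and SYK (-0.38).

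Transcription factors of B cells fell more often than they rose, with 11 lower and 1 higher of 21 and a median of -0.52. Without L428-PAX5+MAT replicate 2, 7 were lower and 2 higher. The exception was IRF8, a factor of germinal-centre B cells, which read 11.17, 11.28 and 10.40 in L428-PAX5+MAT and 9.62, 8.99 and 8.15 in L428+M, a 4.08-fold rise (2.03 ± 0.28). Its mean of 10.95 in L428-PAX5+MAT compares with 11.17 in Raji and 11.36 in Namalwa. The largest falls were those of FLI1, an ETS factor (-2.33 ± 0.15), TCF4, an E protein (-1.91 ± 0.28), IKZF1, which encodes Ikaros (-1.85), and MEF2C (-1.49). POU2AF1, a co-activator of octamer factors, stood at 6.08, 6.51 and 6.20 in L428-PAX5+MAT and 6.32, 6.51 and 6.11 in L428+M, and SPIB, another ETS factor, differed by -0.44 ± 0.30 (adjusted p = 0.274). Neither of the last pair passed, and the sign of POU2AF1 turned to 0.04 without L428-PAX5+MAT replicate 1 and to 0.05 without L428+M replicate 2.

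**Figure D3:**
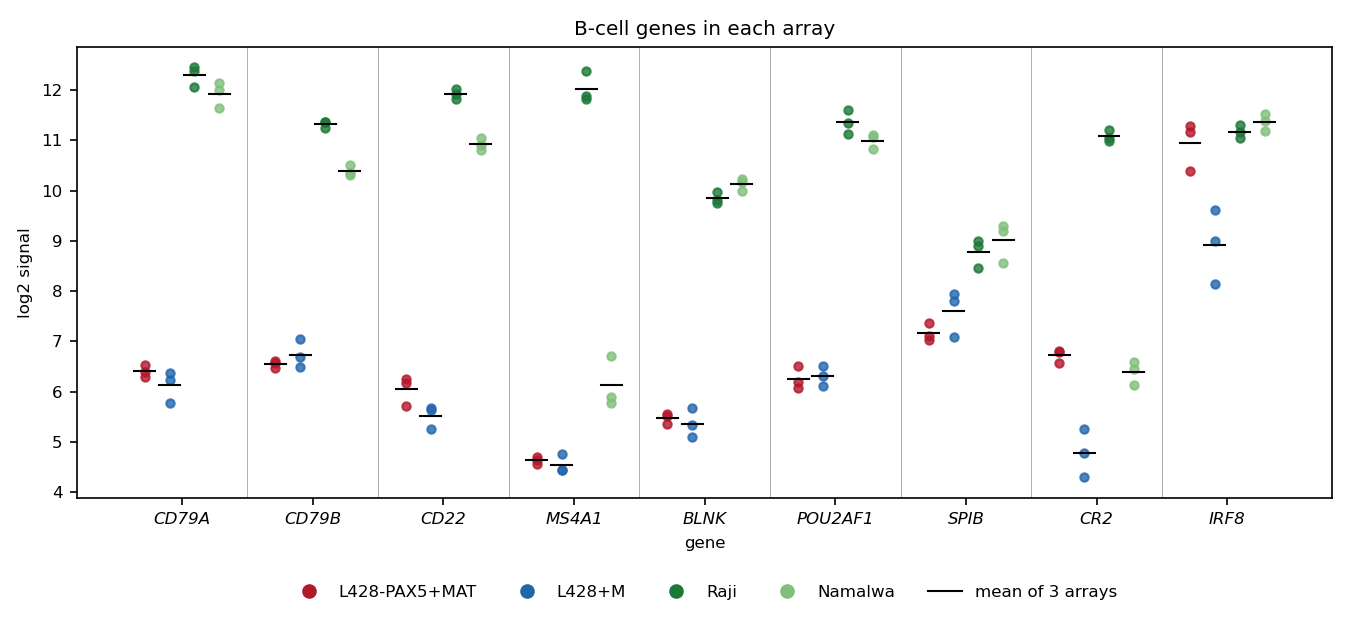
Log2 expression per array of CD79A, CD79B, CD22, MS4A1, BLNK, POU2AF1, SPIB, CR2 and IRF8 in L428-PAX5+MAT, L428+M, Raji and Namalwa. CD79A lies between 5.78 and 6.53 on the 6 L428-derived arrays, against means of 12.30 in Raji and 11.93 in Namalwa, whereas IRF8 averages 10.95 in L428-PAX5+MAT and 11.17 in Raji.

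Genes that oppose B-cell factors moved the other way. Of 16 inhibitors and lineage rivals, 9 rose and 3 fell, with a median of 0.62. HES1, a repressor that Notch signalling switches on, read 9.52, 9.63 and 9.53 in L428-PAX5+MAT and 6.80, 6.15 and 6.34 in L428+M, 8.76-fold higher. ID1 and ID3, which bind E proteins and keep them from DNA, rose by 2.52 ± 0.34 and 1.97 ± 0.28, and NOTCH1, the receptor, by 1.01 ± 0.26. HES1 also rose in L428-PAX5+M (2.91), whereas ID1 and ID3 did not pass in either single comparison (0.22 to 0.45). ID2, an inhibitor of E proteins made by Hodgkin cells, read 11.35, 11.50 and 10.83 in L428-PAX5+MAT and 11.57, 11.30 and 10.78 in L428+M (0.01 ± 0.26, adjusted p = 0.981), and its difference was below 0 without L428-PAX5+MAT replicate 1 or 2 or L428+M replicate 3. The falls were those of MSC, which encodes the E-protein antagonist ABF-1 (-2.31 ± 0.24, 4.96-fold lower), GATA3, the T-cell factor (-1.55 ± 0.17), and GFI1, a repressor of blood cells (-1.02).

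Genes reported as activated by PAX5 fell more often than they rose, and so did genes reported as repressed by it. Of 19 reported as activated, 4 rose (21.1%) and 7 fell (36.8%), beside 17.9% and 19.6% of all genes, with a median of -0.20. The rises were CR2, IRF8, ID3 and CD55, and the largest falls were RASGRP3, a Ras activator in B-cell signalling (-2.73), and PLEKHA2, an adaptor that binds phosphoinositides (-1.86). Of 20 reported as repressed, 10 fell and 2 rose, with a median of -0.40. Beside EVI2B, the falls held EMB, which encodes embigin (-2.86), and ITGAL, an integrin of leukocytes (-1.92). The 2 rises were those of CSF1R, the macrophage growth factor receptor, which read 9.85, 10.28 and 9.39 in L428-PAX5+MAT and 6.67, 6.49 and 6.18 in L428+M (10.5-fold), and NOTCH1. CSF1R rose in L428-PAX5+M too, by 2.69. With the replicate number as a block, 4 of the 20 rose.

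Germinal-centre genes were mixed, with 2 higher (11.8%) and 6 lower (35.3%) of 17, beside 17.9% and 19.6% of all genes. Their median was -0.05 here and 0.08 after a further quantile normalization. FAS, the death receptor, fell by 2.57 ± 0.39 and GCSAM, a germinal-centre signalling adaptor, by 2.07 ± 0.17, while HMCES, a DNA repair protein, rose by 0.99 ± 0.20, and ELL3, an elongation factor, rose by 0.42. The rise of ELL3 was lost without L428-PAX5+MAT replicate 2 or 3 or L428+M replicate 2 or 3. In the plasma-cell list 9 of 22 fell (40.9%) and 2 rose (9.09%), while 37.5% of all genes in the brightest bin fell. PRDM1, which encodes Blimp-1, fell by 0.67 ± 0.16 and XBP1, the secretory factor, by 1.05 ± 0.18. The largest falls of that list were ELL2 (-1.91), an elongation factor of plasma cells, and DNAJB9 (-1.55), a chaperone. The rises were HSP90B1 (0.68) and FNDC3B (0.31), of which FNDC3B was lost without L428-PAX5+MAT replicate 1 or 2 or L428+M replicate 1 or 2. With the replicate number as a block, 5 rose.

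Antigen presentation was lower in L428-PAX5+MAT. HLA class II genes, which present extracellular peptides to helper T cells, fell in 10 of 14 cases, with a median of -1.18. The list median was 8.17, 7.73 and 8.07 on the L428-PAX5+MAT arrays and 9.35, 8.99 and 8.93 on the L428+M arrays, so every array of the first group was below every array of the second. CIITA, the master regulator of class II, read 7.10, 6.93 and 6.49 in L428-PAX5+MAT and 8.33, 8.54 and 8.49 in L428+M (-1.62 ± 0.18). RFX5, a factor that binds class II promoters, fell by 1.16, and CTSS, the protease that clears the invariant chain, by 2.80 ± 0.27. HLA-DPB1 read 11.40, 11.43 and 11.88 in L428-PAX5+MAT and 13.38, 13.45 and 13.40 in L428+M, and HLA genes cross-hybridise, so their separate values are uncertain.

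IFI30, a thiol reductase of the same pathway, was the only rise (0.78 ± 0.21), with overlapping groups. Its adjusted p was 0.0558 without L428-PAX5+MAT replicate 2. HLA-DRA, HLA-DRB1 and CD74 were not measured here. In L428-PAX5+M 8 of the 14 fell and 1 rose, and in L428+MAT 2 rose.

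Class I antigen processing lost 7 of 12 members and gained 1, with a median of -0.94. ERAP1, which trims peptides, fell by 1.80 ± 0.21. The immunoproteasome subunit PSMB8 read 6.69, 6.45 and 6.44 in L428-PAX5+MAT and 8.89, 7.99 and 8.04 in L428+M (3.43-fold lower). The peptide pump TAP1 fell by 1.33 and B2M, the light chain of class I molecules, by 0.85. CALR, a chaperone of the endoplasmic reticulum, rose by 0.40 ± 0.15 (adjusted p = 0.0428), a call lost when any of L428-PAX5+MAT replicate 1 or 2 or L428+M replicate 2 or 3 was left out. In L428+MAT 4 of the 12 rose.

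The Hodgkin cell program was reduced but not erased. Of 36 genes typical of Hodgkin cells, 20 fell and 4 rose, with a median change of -0.96. The list median was 8.90, 8.28 and 9 on the L428-PAX5+MAT arrays and 9.76, 9.72 and 9.36 on the L428+M arrays, without overlap, while in Raji it was 6.24 to 6.30. TNFRSF8, the CD30 receptor that defines these cells, read 8.17, 7.93 and 7.84 in L428-PAX5+MAT and 10.22, 10.11 and 9.32 in L428+M (3.74-fold lower). The cytokine IL5 (-3.90 ± 0.41), the adaptor SH2D1B (-3.23 ± 0.34), the costimulatory ligand CD86 (-2.70) and the chemokine CCL17 (-1.05) fell as well.

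The 4 rises were CCL20, a chemokine for CCR6-bearing cells, which read 8.33, 9.17 and 8.52 in L428-PAX5+MAT and 4.93, 4.92 and 5.31 in L428+M (12.3-fold), CSF1R, the checkpoint ligand CD274 (1.80) and the neurotrophin receptor NTRK2 (0.38). Single comparisons of the same list gave 9 falls and 6 rises in L428-PAX5+M and 4 rises in L428+MAT. IL31, a cytokine of itch, stood at 5.70, 5.72 and 7.23 in L428-PAX5+MAT and 6.06, 5.20 and 5.60 in L428+M and did not pass (0.59 ± 0.29, adjusted p = 0.127), although the PAX5 line without the drugs was 4.62 above L428+M. Its call moved with the arrays kept: the difference was 0.86 (adjusted p = 0.0409) without L428-PAX5+MAT replicate 1, 0.84 (adjusted p = 0.0466) without replicate 2 and 0.09 (adjusted p = 0.777) without replicate 3, the high array. It was 0.38 (adjusted p = 0.404) without L428+M replicate 2 and 0.16 (adjusted p = 0.476) with array weights. The weighted fit took the L428-PAX5+MAT mean almost wholly from replicate 1.

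Genes of NF-kB and JAK-STAT signalling fell more often than they rose. Of 28 NF-kB subunits and targets, 10 fell and 4 rose, and the falls held CD44, an adhesion receptor (-2.58 ± 0.13), TNIP1, an inhibitor of the pathway (-1.85 ± 0.20), and the subunit NFKB1 (-1.17), while the subunit REL rose by 1.02. IER3, an early response gene, rose by 1.23 with overlapping groups, and its adjusted p was 0.0564 without L428-PAX5+MAT replicate 2. TNFAIP2 rose by 1.13 and SOD2, the mitochondrial superoxide dismutase, by 0.84. Of 22 measured JAK and STAT genes and their brakes, 8 fell and 2 rose. STAT6, the factor of interleukin 4 and 13 signalling, read 8.95, 8.69 and 8.99 in L428-PAX5+MAT and 11.30, 11.19 and 10.75 in L428+M, 4.61-fold lower. CISH and SOCS1, targets and brakes of STAT factors, fell by 1.91 and 1.61, and the kinases JAK3 and JAK2 by 1.38 and 0.80. PIAS2 (0.68) and SOCS2 (0.46), inhibitors of the pathway, rose, SOCS2 not without L428-PAX5+MAT replicate 1 or 3 or L428+M replicate 2. That count of rises was 1 without L428-PAX5+MAT replicate 1 or 3 or L428+M replicate 2, and 4 without L428-PAX5+MAT replicate 2.

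The interferon response separated the combination from the drugs alone. Its 39 measured genes had medians of 7.95, 7.96 and 8.16 on the L428-PAX5+MAT arrays, 8.53, 8.35 and 8.46 on the L428-PAX5+M arrays, 9.90, 9.87 and 10.06 on the L428+MAT arrays and 8.55, 8.50 and 8.60 on the L428+M arrays. The list was thus highest on the L428+MAT arrays and lowest on the L428-PAX5+MAT arrays, without overlap. In L428-PAX5+MAT 20 of the 39 fell and 5 rose (median change -0.61), in L428-PAX5+M 8 fell and 6 rose (median -0.29), and in L428+MAT 29 rose (median 1.10). The 3 comparisons share the L428+M arrays.

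The difference itself was tested as the combined change against the sum of both single changes. Over all genes 1039 (5.64%) lay above that sum and 1951 (10.6%) below it. With the replicate number as a block the counts were 1717 and 3013, and after a further quantile normalization they were 1409 and 1483, so the lean towards the lower side depended on the scaling. Of the 39 interferon genes, 30 lay below the sum, with a median departure of -1.92. The same was found for 16 of 36 Hodgkin cell genes, 10 of 28 NF-kB genes, 7 of 12 class I genes and 9 of 23 nucleic acid sensors.

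IFI44L, an interferon-induced antiviral protein, read 6.98, 6.54 and 8.52 in L428-PAX5+MAT and 10.18, 10.41 and 10.70 in L428+M (8.48-fold lower), while in L428+MAT it was 1.29 higher than in L428+M. IFITM1, which blocks virus entry, read 8.80, 8.58 and 9.10 in L428-PAX5+MAT and 11.68, 11.58 and 11.42 in L428+M (6.66-fold lower), with single changes of -1.38 in L428-PAX5+M and 0.90 in L428+MAT. OAS2, which makes the activator of RNase L, read 6.62, 6.43 and 7.50 in L428-PAX5+MAT and 9.08, 8.93 and 8.60 in L428+M, and rose by 1.51 in L428+MAT. MX1, a dynamin-like antiviral GTPase, was 1.30 lower in L428-PAX5+MAT and 2.59 higher in L428+MAT. Each of these 4 genes was lower in L428-PAX5+MAT and higher in L428+MAT than in L428+M, and for IFI44L, IFITM1 and OAS2 the groups L428-PAX5+MAT and L428+M did not overlap.

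The 5 rises were LGALS3BP, OASL (1.01 ± 0.17), OAS3 (0.61), IFIT1 (0.42) and HERC5 (0.42). Their count was 2 without L428-PAX5+MAT replicate 1 and 3 without any single L428+M array, while the count of falls stayed at 20 or 21 whichever array was left out. LGALS3BP, a secreted glycoprotein, read 8.68, 8.43 and 8.16 in L428-PAX5+MAT and 6.56, 6.30 and 6.44 in L428+M, 3.98-fold higher, and was higher in both single comparisons as well (2.41 in L428-PAX5+M, 1.71 in L428+MAT). Its departure from the sum was -2.13, below 0 like those of IFI44L and IFITM1, although the gene rose.

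**Figure D4:**
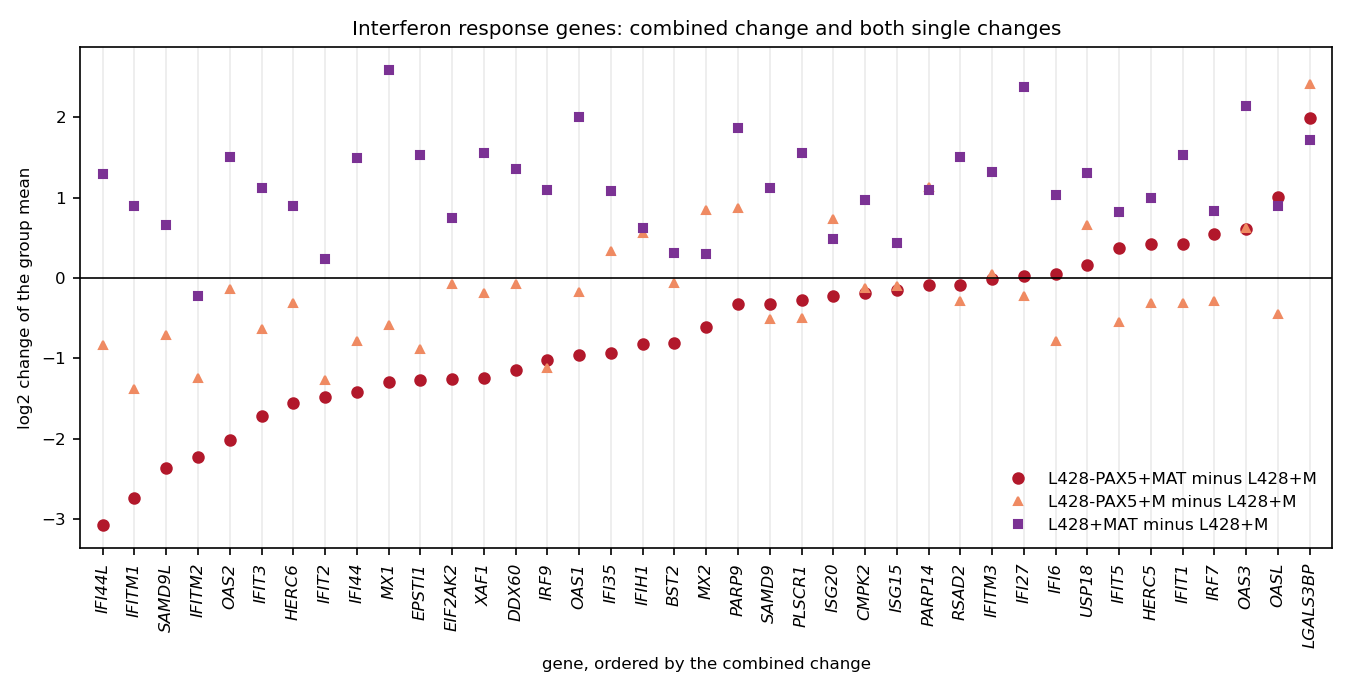
Log2 change against L428+M of the 39 interferon response genes, ordered by the combined change, with red circles for L428-PAX5+MAT, orange triangles for L428-PAX5+M and purple squares for L428+MAT. The median of the circles is -0.61 and that of the squares 1.10.

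In the list of nucleic acid sensors and interferon genes, 10 of 23 were lower (43.5%) and 1 was higher (4.35%). Over all genes 19.6% were lower and 17.9% higher. Of the 4 interferon genes in the list, IFNB1 fell (-0.43 ± 0.17, adjusted p = 0.0466) and IFNL1 (0.26), IFNL2 (-0.10) and IFNE (0.03) did not pass. TLR7, the endosomal RNA sensor, fell by 1.89 ± 0.21, STING1, the adaptor of cytosolic DNA sensing, by 1.66 ± 0.23, and the DNA sensor CGAS by 0.80. RIGI, the cytosolic RNA sensor RIG-I, was the exception at 9.14, 8.90 and 9.17 in L428-PAX5+MAT and 7.62, 7.62 and 7.91 in L428+M (2.55-fold higher), and it rose by 1.86 in L428+MAT. The count of rises was 2 without L428+M replicate 1 and 2 with the replicate block. The count of falls was 5 in a fit on the 6 arrays of both groups. The same letters, looked for on both strands of the 300 bases from 250 before to 50 after the start, were present in 23 of the 32 interferon genes with a RefSeq promoter (71.9%) and in 6 of 11 class I genes (54.5%), against 433 of all 14237 promoters (3.04%). Genes that fell at least 2-fold held them in 4.39% of promoters and genes that rose at least 2-fold in 2.80%, so over the whole comparison they were uncommon in both.

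Germ-line genes rose more often than they fell. Of 42 germ-cell, meiosis and piRNA genes, 21 rose (50%) and 1 fell (2.38%), beside 17.9% and 19.6% of all genes. Their median change was 0.42. A filter on dim genes kept only those with a mean over all arrays above the median of all values. With that filter 5 members rose. The list medians were 5.83, 5.63 and 5.84 on the L428-PAX5+MAT arrays and 4.90, 4.76 and 5.01 on the L428+M arrays. After RFPL4A came CCNA1, the germ-line cyclin A1, at 10.33, 10.60 and 9.42 in L428-PAX5+MAT and 5.88, 6.09 and 6.08 in L428+M (17.2-fold). BRDT, a testis bromodomain protein, rose by 3.40, MAEL, a piRNA factor, by 3.08, and DAZL, the RNA-binding protein of germ cells, by 2.58. The meiotic chromosome proteins HORMAD1 and SYCP3 rose by 2.30 and 1.90. DMC1, the meiotic recombinase, fell by 0.87 ± 0.20, and 2 members fell without L428+M replicate 2. In L428+MAT 17 of the 42 rose, DAZL by 4.38.

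Cancer-testis antigens, germ-line proteins that tumours can express, rose in 8 of 19 cases (42.1%) and fell in 2 (10.5%). The shares over all genes were 17.9% and 19.6%, and with the filter on dim genes 2 members rose. SSX1, a transcriptional repressor of the testis, read 9.32, 8.95 and 8.95 in L428-PAX5+MAT and 5.06, 4.41 and 5.10 in L428+M (18.6-fold), and TKTL1, a transketolase relative, read 11.23, 10.48 and 9.99 in L428-PAX5+MAT and 6.01, 6.41 and 6.29 in L428+M (20.1-fold). In L428+MAT they rose by 5.38 and 5.06, and for SSX1 the departure from the sum passed (-1.43). Genes of the SSX and MAGE families are near-identical and may share signal. PRAME, an antigen widely expressed in tumours, fell by 1.21 ± 0.25, and MAGEB2 fell by 0.68 ± 0.18.

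The median number of CG in the 300-base promoters was 23 over all genes, 24 in those that rose at least 2-fold, 25 in those that fell at least 2-fold, 26 in the germ-cell list, 13 in the cancer-testis list and 8 in the interferon list. Of the 77 genes that rose at least 8-fold, 61 had a RefSeq promoter, and their median was 19. Of the 36 that fell at least 8-fold, 28 had one, and their median was 4. The other medians likewise cover only genes with a RefSeq promoter. The medians were close for rises and falls of at least 2-fold and lower for the extremes, and no test was made. Among the rises the count ranged widely, as the printed DAZL and RFPL4A windows show.

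Some genes of other tissues rose as well. Of 29 neuronal genes, 13 rose (44.8%) and 2 fell (6.9%), beside 17.9% and 19.6% of all genes. Their median change was 0.31, and with the filter on dim genes 4 rose. Next to TENM1, UCHL1, a neuronal ubiquitin hydrolase, rose by 2.38 ± 0.31, and the microtubule protein MAP2 and the neurofilament NEFM rose by 1.81 and 1.76, while ENO2, the neuronal enolase, fell by 1.61 and STMN2, a regulator of microtubules, by 1.53. The list medians were 6.54, 6.80 and 6.34 on the L428-PAX5+MAT arrays and 5.67, 5.73 and 6.03 on the L428+M arrays.

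Of 38 adhesion and epithelial genes, 10 rose (26.3%) and 9 fell (23.7%), beside 17.9% and 19.6% of all genes, with a median of -0.08. SNAI2, the repressor Slug, read 9.49, 10.20 and 8.43 in L428-PAX5+MAT and 5.29, 5.13 and 5.28 in L428+M (17.6-fold). FN1, which encodes fibronectin, rose by 3.06 ± 0.22. The simple-epithelium keratins KRT8 and KRT18 rose by 2.22 and 1.25, whereas VIM, which encodes vimentin, and the repressor ZEB1 fell by 1.44 and 1.24. The leukocyte integrins ITGAL and ITGA4 fell by 1.92 and 1.87. Summed over 5 epithelial markers the level was 10.25 to 10.38 in L428-PAX5+MAT and 9.13 to 9.27 in L428+M, with the 2 keratins as the passing members, and its part in the results above was not tested.

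Markers of other blood cells did not rise together. Of 27 T and NK genes, 1 rose (3.7%) and 4 fell (14.8%), beside 17.9% and 19.6% of all genes. The rise was CD3G (0.35 ± 0.13), which was lost without L428-PAX5+MAT replicate 1 or 2 or without any single L428+M array, and the falls were led by THEMIS, a T-cell signalling protein (-2.30), and KLRF1, an NK receptor (-1.95). Of 24 myeloid genes, 5 rose (20.8%) and 3 fell (12.5%), beside 17.9% and 19.6% of all genes. CSF1R, CD68 (0.92), TYROBP (0.50), VCAN (0.45) and CD14 (0.43) were the rises, and their count was 3 without L428-PAX5+MAT replicate 2 or 3 or L428+M replicate 2, and 2 without L428+M replicate 1. None of 7 defining myeloid markers lay above the median of all values in either group.

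Genes of growth arrest rose more often than they fell. Of 28 p53 targets and inhibitors of cyclin-dependent kinases, 11 rose (39.3%) and 4 fell (14.3%), beside 17.9% and 19.6% of all genes. PLK2, a p53 target kinase, read 7.45, 7.85 and 6.70 in L428-PAX5+MAT and 3.62, 3.77 and 4.06 in L428+M (11.4-fold), CDKN2B, which encodes p15, rose by 1.44 ± 0.24, and CDKN1A, which encodes p21, read 8.82, 9.14 and 8.42 in L428-PAX5+MAT and 7.55, 7.62 and 7.42 in L428+M (1.27 ± 0.25). CDKN1A also rose in L428+MAT (1.14), whereas CDKN2B did not pass there (0.15). CDKN1B, which encodes p27, fell by 2.06 ± 0.25.

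Of 43 replication and mitosis genes, 7 rose (16.3%) and 11 fell (25.6%), beside 17.9% and 19.6% of all genes. Without L428-PAX5+MAT replicate 2, 7 of these genes fell. Their median was -0.14 here and 0.05 after a further quantile normalization. TYMS, thymidylate synthase, read 9.55, 9.17 and 9.67 in L428-PAX5+MAT and 12.17, 11.77 and 11.77 in L428+M (5.42-fold lower), and CDT1, a licensing factor, fell by 1.10 ± 0.23. CDC6, its partner, rose by 1.68 ± 0.27, and CCNE2, a cyclin of S-phase entry, by 1.34 ± 0.19.

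Ribosome biogenesis genes rose in L428-PAX5+M, and fewer did so in the combination. Of 31 genes around MYC and ribosome biogenesis, 6 rose (19.4%) and 5 fell (16.1%) in L428-PAX5+MAT (median 0.08), against 19 that rose in L428-PAX5+M (median 0.66). Of all genes 17.9% rose and 19.6% fell in L428-PAX5+MAT. Of the 31, 9 lay below the sum of both single changes, or 15 with the replicate block. The count of rises in L428-PAX5+MAT was 10 without L428+M replicate 1, 10 with the replicate block and 13 after a further quantile normalization, which moved the median to 0.26. MXD1, an antagonist of MYC, read 10.99, 11.04 and 10.67 in L428-PAX5+MAT and 8.39, 8.54 and 8.29 in L428+M (5.63-fold), and ODC1, the polyamine enzyme and MYC target, rose by 1.34. WDR43 and DKC1, factors of ribosome assembly, fell by 0.78 and 0.62. MYC read 10.58, 10.23 and 10.50 in L428-PAX5+MAT and 10.94, 10.75 and 10.74 in L428+M and did not pass (-0.37 ± 0.15, adjusted p = 0.0544), though with the replicate block it did (adjusted p = 0.0368), as it did without L428-PAX5+MAT replicate 1 (-0.45, adjusted p = 0.0471), with medians subtracted (adjusted p = 0.0453), with the filter on dim genes (adjusted p = 0.0445), with an intensity trend (adjusted p = 0.0476) and with array weights (adjusted p = 0.0418). After a further quantile normalization the difference was -0.14 (adjusted p = 0.421).

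Among 29 genes of DNA methylation and histone deacetylation, the targets of the drugs, 6 rose (20.7%) and 8 fell (27.6%), beside 17.9% and 19.6% of all genes. Their median was -0.03 here and 0.10 after a further quantile normalization. DNMT3B, a de novo methyltransferase, rose by 1.62 ± 0.21. DNMT1, the maintenance enzyme, read 11.16, 11.06 and 10.92 in L428-PAX5+MAT and 10.87, 10.88 and 10.56 in L428+M and did not pass (0.28 ± 0.12, adjusted p = 0.0818), except without L428-PAX5+MAT replicate 3 (0.35, adjusted p = 0.0478), after a further quantile normalization (0.49, adjusted p = 0.00238) and with array weights (0.33, adjusted p = 0.00344). TET2, which oxidises methylcytosine, fell by 1.65 ± 0.20 and MBD2, which binds it, by 1.38 ± 0.21, while HDAC11 rose by 0.76. Polycomb genes fell in 11 of 24 cases (45.8%) and rose in 3 (12.5%), with a median of -0.41. The share lower compares with 19.6% of all genes and 37.5% of those in the brightest bin. PCGF5, a subunit of complex PRC1, fell by 1.76 ± 0.19 and PHF19, an accessory of PRC2, by 1.50 ± 0.25, whereas the accessory JARID2 (0.94), the subunit PHC1 (0.81) and the methyltransferase EZH2 (0.46) rose. Of 15 histone genes, 4 rose (26.7%) and 2 fell (13.3%), beside 17.9% and 19.6% of all genes. The rises were led by H2BC5 (1.88) and H2BC21 (1.70) and the falls by H2BC4 (-1.15). Without L428-PAX5+MAT replicate 3, 1 histone gene fell, and with the replicate block 4 fell. Histone genes are near-identical and their separate values are uncertain.

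Regulators of cell death fell more often than they rose, with 13 lower and 3 higher of 29 and a median of -0.40. The share lower was 44.8%, beside 19.6% of all genes and 37.5% of those in the brightest bin. The largest rise was that of BCL2L11, which encodes the death-promoting BIM, at 9.93, 10.00 and 9.94 in L428-PAX5+MAT and 6.86, 7.03 and 7.31 in L428+M (7.41-fold), and it rose in both single comparisons (1.96 in L428-PAX5+M and 1.28 in L428+MAT). APAF1, the core of the apoptosome, rose by 0.86, and CASP9, its caspase, by 0.76. The survival genes BCL2 (-1.65 ± 0.19), BCL2L1 (-1.24) and MCL1 (-0.77) fell, and so did the death receptor FAS and the death caspase CASP8 (-0.83).

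In the list of ATF4, unfolded protein and heat shock genes, 11 of 31 fell (35.5%) and 5 rose (16.1%). In the brightest bin 37.5% of all genes fell and 16.1% rose. The median change of the list was -0.17 here and 0.01 after a further quantile normalization. HERPUD1, a component of protein disposal from the endoplasmic reticulum, fell by 1.34, and ATF4 itself by 1.04, while ERN1, the sensor IRE1, rose by 1.43. Of 17 genes of the glucocorticoid and progesterone receptors and their targets, 7 rose (41.2%) and 4 fell (23.5%), beside 17.9% and 19.6% of all genes. Mifepristone can block these receptors, although both groups had received it. CRISPLD2 read 9.45, 10.44 and 8.46 in L428-PAX5+MAT and 5.29, 5.52 and 5.03 in L428+M (18-fold), and ERRFI1, an inhibitor of the epidermal growth factor receptor, 8.78, 9.86 and 7.89 in L428-PAX5+MAT and 4.84, 4.95 and 4.68 in L428+M (16.2-fold). The receptor gene NR3C1 read 9.42, 7.73 and 9.74 in L428-PAX5+MAT and 10.85, 10.67 and 10.81 in L428+M, and TSC22D3, its target GILZ, fell by 1.20.

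The arrangement of 2 lines with and without drugs let each combined change be set against the sum of both single ones. Among genes that passed the combined comparison, the largest departures above the sum were those of UTS2B (4.31 ± 0.35), GPR50 (3.99), REXO1L1P (3.58), SNAI2 (3.53) and CRISPLD2 (3.52). SNAI2 did not pass in L428-PAX5+M (-0.11) or in L428+MAT (0.71), nor did CRISPLD2 (0.22 and 0.43). REXO1L1P, an exonuclease pseudogene of a repeated family, varied widely among the L428-PAX5+MAT arrays, at 10.77, 11.94 and 9.14, against 7.76, 8.48 and 7.09 in L428+M. The levels of these genes were highest on L428-PAX5+MAT replicate 2 and, except in UTS2B, lowest on replicate 3.

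The largest departures below the sum were those of CYP1B1, a hydroxylase of oestrogens and carcinogens (-4.41), IFI44L (-3.54), AVPR1A, a vasopressin receptor (-3.47), OAS2 (-3.39) and APOL6, an interferon-induced apolipoprotein relative (-3.34). IL31, which did not pass the combined comparison, departed by -3.76. CYP1B1 and AVPR1A were higher in the combination than in L428+M (1.94 and 1.43) and rose in both single comparisons, CYP1B1 by 2.56 in L428-PAX5+M and 3.79 in L428+MAT and AVPR1A by 2.69 and 2.21. APOL6 fell in the combination (-1.41) although it rose in L428-PAX5+M (1.08). In CYP1B1, IFI44L, AVPR1A, OAS2 and APOL6, replicate 2 was the lowest L428-PAX5+MAT array.

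**Figure D5:**
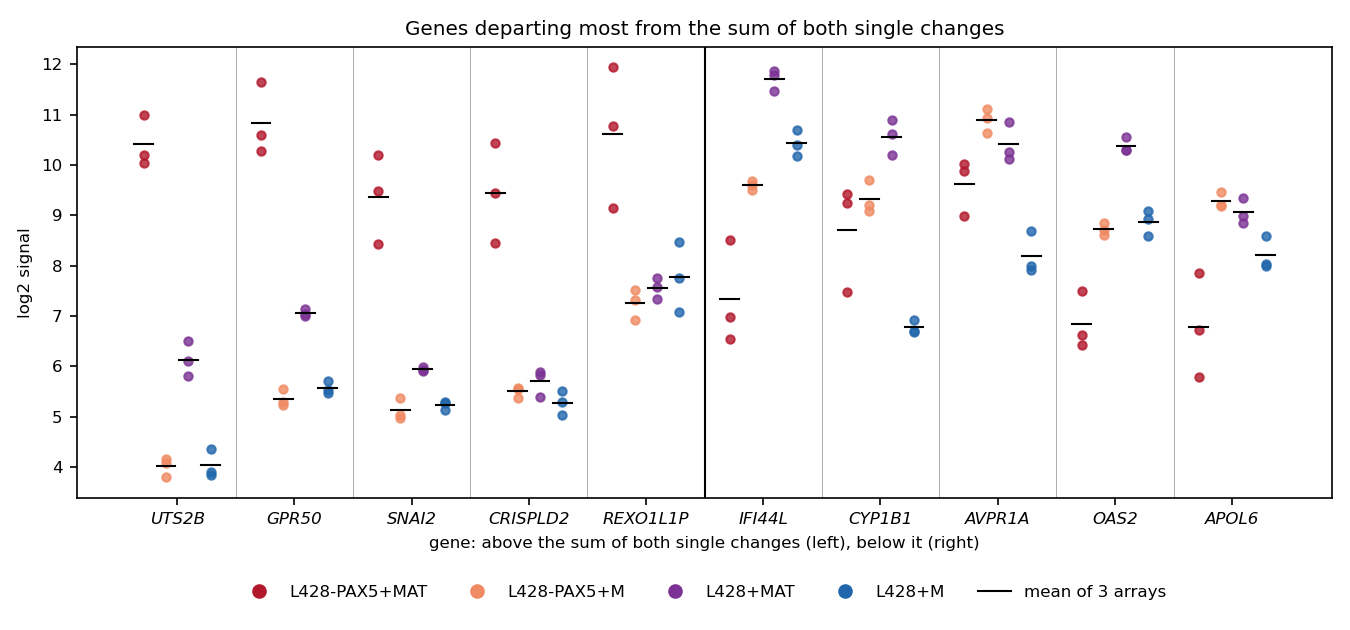
Log2 expression per array in L428-PAX5+MAT, L428-PAX5+M, L428+MAT and L428+M of the 5 genes furthest above and the 5 furthest below the sum of both single changes. SNAI2 is between 8.43 and 10.20 in L428-PAX5+MAT and between 5.13 and 5.29 in L428+M, and OAS2 is lowest in L428-PAX5+MAT, at 6.43 to 7.50.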

How the data were processed

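RNA of 18 samples, 3 per group, was measured on Affymetrix whole-transcript arrays. The authors deposited 1 table of log2 expression values for 33297 probe sets, made with RMA and Partek per the submitters' processing notes; their settings and versions are not given in the sources used here. Values span 2.24 to 14.64 and array medians 6.52 to 6.70. The number of arrays limits the precision. Platform annotation assigned 1 symbol to 19460 probe sets, several to 1754 and none listed to 12083, and only the first were used; 19429 matched RefSeq. In 769 genes with more than 1 probe set, the brightest was kept, leaving 18417.

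Groups came from the labels. One mean per group was fitted over all 18 arrays with limma 3.58.1 in R 4.3.3 (lmFit, eBayes, 12 residual and 6.1 prior degrees of freedom), with two-sided tests and Benjamini-Hochberg adjustment at 0.05; L428-PAX5+MAT minus L428+M was the comparison described, and the single comparisons and the departure from their sum came from the same fit. The scripts were tested on simulated data. Tables and figures used Python 3.11.15, pandas 2.3.3, numpy 2.4.6 and matplotlib 3.10.9.

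Genes were named by a rule. It took PAX5, the 12 genes with the strongest rise and the 12 with the strongest fall, provided that they passed, that the groups did not overlap and that the higher group mean exceeded the table's median. It added from each list at most 2 members that rose and 2 that fell, the 5 largest departures each way, and the fixed genes CD79A, CD79B, CD22, MS4A1, BLNK, POU2AF1, SPIB, CR2, CIITA, PRDM1, XBP1, TNFRSF8, ID2, MSC, IL31, CDKN1A, MYC and DNMT1, with 1 gene of the rule not reported here. Further list members were named after their values were seen. The comparison and the 29 gene lists were chosen with earlier results of these data known.

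Arrays with the same replicate number deviated together from their group means (r = 0.29, 0.31 and 0.46 across genes, against -0.39 to 0.17 for other numbers), a pairing that comes from the numbers in the titles, so a fit with the number as a block was run. Other alternatives were array medians subtracted, a further quantile normalization, a filter on dim genes, fits on 6 or 12 arrays, an intensity trend, array weights, the mean of probe sets, a test against a 2-fold change (limma's treat) and each array left out. No scan dates were used, so batches were not tested.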

Additional observations from a re-analysis of the deposited data

Results flagged for a closer look

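For 64 named genes the effect of 5-aza-dC and TSA in L428-PAX5 differed from that in L428 by limma's interaction test over all genes (adjusted p below 0.05). This equals the departure of the combined change from the sum of both single changes, and each value below is that departure on the log2 scale. The leading rises and falls were chosen on the L428-PAX5+MAT and L428+M arrays, which also enter this departure.

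Among the leading rises the departure was above 0 for UTS2B (4.31), GPR50 (3.99), RFPL4A (3.06), KRTAP19-8 (3.04), DNAH12 (2.95), FMN1 (2.65), TCN2 (2.05), TENM1 (1.37) and ZNF737 (1.34). Other genes above the sum were REXO1L1P (3.58), SNAI2 (3.53), CRISPLD2 (3.52), CCNA1 (2.55), ERRFI1 (2.38), CCNE2 (2.32), PLK2 (2.13), CCL20 (2.03), ID1 (2.02), CDKN2B (1.44), H2BC5 (1.38), CD24 (1.29), ERN1 (1.15), ELL3 (0.89) and APAF1 (0.70). ENTREP1 was also above it (0.99), although it fell.

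Among the leading falls the departure was below 0 for NDST4 (-3.08), CYP4Z1 (-2.62), CYP4Z2P (-1.78) and GBE1 (-1.56). Immune genes below the sum were IL31 (-3.76), IFI44L (-3.54), OAS2 (-3.39), APOL6 (-3.34), CTSS (-2.50), SH2D1B (-2.44), RASGRP3 (-2.30), IFITM1 (-2.25), LGALS3BP (-2.13), EMB (-2.02), ERAP1 (-1.94), CR2 (-1.87), PSMB8 (-1.77), FAS (-1.65), ITGA4 (-1.53), XBP1 (-1.44), TNFRSF8 (-1.38), STAT6 (-1.33), TNIP1 (-1.28), SOCS2 (-1.09), PLEKHA2 (-1.02) and CD44 (-0.62). Other genes below it were CYP1B1 (-4.41), AVPR1A (-3.47), TCF4 (-1.60), TYMS (-1.51), SSX1 (-1.43), DKC1 (-1.41), MSC (-1.36), NR3C1 (-1.36), WDR43 (-1.23), PHF19 (-1.18), MBD2 (-1.05), MAGEB2 (-1.01) and DNMT1 (-0.56). The rise of CR2 was 1.80 in L428-PAX5+M and 2.02 in L428+MAT, beside 1.95 in the combination.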

How the results depend on the processing

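Of the 144 genes that the naming rule chose, 127 kept their direction and their side of the 0.05 threshold in every alternative run, 124 of them among the 134 that passed, and further list members were not run singly. On the 6 arrays of both groups alone, 2 genes rose in each of the B-cell receptor, interferon and myeloid lists, against 5 in each here. Counts of rises and falls were 3947 and 4494 with the replicate block, 2567 and 2715 in a fit on the 6 arrays of both groups, and 2869 to 3343 and 3116 to 3511 when 1 array was left out. At least 2-fold, 825 genes were higher among genes above the median of all values, 1157 to 1417 were higher and 1177 to 1575 lower with 1 array left out, and the test against a 2-fold change called 395 higher and 398 lower. Departures from the sum counted 1717 above and 3013 below with the replicate block, 2682 and 3283 with array weights, and 748 to 1510 and 1416 to 2446 with 1 array left out. The sign reversed for genes near 0, which did not pass: with 1 array left out BLNK ranged from -0.02 to 0.27, POU2AF1 from -0.17 to 0.05 and ID2 from -0.21 to 0.21, and ID2 was -0.02 with medians subtracted. Except for MYC (-0.37, adjusted p = 0.0368), the replicate block changed no call of a named gene. With array weights, POU2AF1 (-0.30, adjusted p = 0.0395) and SPIB (-0.64, adjusted p = 0.00669) fell and DNMT1 (0.33, adjusted p = 0.00344) rose. In that fit L428-PAX5+MAT replicate 1 had a weight of 15.24, and replicates 2 and 3 had 0.29 and 0.25. Its L428-PAX5+MAT means thus rested almost wholly on 1 array, which limits every call and count given with array weights. The cause of these moves was not tested. Without detection calls, signal over background limits dim genes to an unknown degree.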
